A study of Homo sapiens with 8 samples.

Results

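The expression of 10 genes that control the G1 phase of the cell cycle was described in lung cancer cells sensitive or resistant to an inhibitor of fibroblast growth factor receptors (FGFR). These are the D cyclins CCND1, CCND2 and CCND3, their partner kinases CDK4 and CDK6, the retinoblastoma gene RB1, and the kinase inhibitors CDKN1A, CDKN1B, CDKN2A and CDKN2C. They were chosen by symbol, and all 10 had a row among the 37441 genes of the count table and were among the 18203 genes tested, which had at least 10 counts in total. RNA came from 8 libraries, 2 for each of 4 variants of 2 non-small cell lung cancer cell lines. NCI-H1581 and NCI-H1703 were the sensitive parental lines, grown in DMEM/F12 and RPMI 1640 respectively. NCI-H1581R and NCI-H1703R were derived from them by growth under rising doses of CPL304110, an FGFR inhibitor, from 50 nM up to 2.5 µM for NCI-H1581R and 5 µM for NCI-H1703R. Cells were harvested 24 h after a change of medium, and the sources used here do not state whether that medium held the inhibitor. Each resistant variant is 1 selection of its line, and the second replicate is a repeat culture, so the tests measure the spread between cultures of 1 variant. The line cannot be told apart from its medium, nor resistance in general from this 1 selection per line.

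D cyclins bind CDK4 or CDK6 when growth factors signal to the cell, and the active kinases phosphorylate the retinoblastoma protein. Phosphorylated retinoblastoma protein lets go of the E2F transcription factors, which then switch on the genes for DNA replication. Inhibitors of the INK4 family (CDKN2A and CDKN2C here) bind CDK4 and CDK6 themselves, whereas those of the CIP/KIP family (CDKN1A, encoding p21, and CDKN1B, encoding p27) bind cyclin and kinase together. CCND1 is a familiar read-out of receptor tyrosine kinase signalling, and CDKN2A is often deleted in lung cancer. The libraries report RNA only, while phosphorylation and protein stability govern several of these proteins.

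Promoter windows from RefSeq (GRCh38.p14, 250 bases before to 50 bases after a start) were found for 8 of the 10 genes, 14 windows in all, and not for CCND1 and CCND2. The window listed for RB1 (chr13:48476200-48476499) lies inside the gene, away from its first start. Printed here are 4 of them, each 5′ to 3′ on the strand of the gene, with GGGCGG, the core of the GC box, in capitals where it occurs on either strand (CCGCCC on the printed one). CDKN1A and CDK6 are shown because both changed with resistance in both lines.
CDKN1A, chr6:36678464-36678763, plus strand: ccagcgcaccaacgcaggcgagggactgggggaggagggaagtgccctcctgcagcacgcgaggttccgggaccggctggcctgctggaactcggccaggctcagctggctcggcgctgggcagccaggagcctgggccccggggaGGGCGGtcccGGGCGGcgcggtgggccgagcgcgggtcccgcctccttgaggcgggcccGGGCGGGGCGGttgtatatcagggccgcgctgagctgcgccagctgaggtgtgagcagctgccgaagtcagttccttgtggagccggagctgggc
CDK6, chr7:92836524-92836823, minus strand: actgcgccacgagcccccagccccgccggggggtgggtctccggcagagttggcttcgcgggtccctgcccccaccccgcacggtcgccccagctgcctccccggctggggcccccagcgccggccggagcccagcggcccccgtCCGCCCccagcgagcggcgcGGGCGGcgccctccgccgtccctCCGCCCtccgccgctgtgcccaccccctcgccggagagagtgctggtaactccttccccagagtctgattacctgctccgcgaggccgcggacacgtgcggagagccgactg
Both starts of CDKN2A are shown because its counts add up RNA from each of them. The upstream one opens the transcript for ARF and the downstream one that for p16INK4a.
CDKN2A upstream start, chr9:21995275-21995574, minus strand: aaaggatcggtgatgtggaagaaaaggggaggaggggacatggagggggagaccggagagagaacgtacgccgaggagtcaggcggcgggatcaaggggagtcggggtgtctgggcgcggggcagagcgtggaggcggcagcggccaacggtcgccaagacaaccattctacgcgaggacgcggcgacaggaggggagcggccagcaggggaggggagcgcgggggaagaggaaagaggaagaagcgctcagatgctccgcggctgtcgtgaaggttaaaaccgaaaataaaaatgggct
CDKN2A downstream start, chr9:21974808-21975107, minus strand: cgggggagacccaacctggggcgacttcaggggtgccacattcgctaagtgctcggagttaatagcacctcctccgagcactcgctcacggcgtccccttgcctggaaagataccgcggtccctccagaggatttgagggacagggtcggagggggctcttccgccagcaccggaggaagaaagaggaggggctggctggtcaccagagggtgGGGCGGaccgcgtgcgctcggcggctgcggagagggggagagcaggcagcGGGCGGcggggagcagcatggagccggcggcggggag
The CDKN1A window held 4 GC boxes, the last 2 of them overlapping, the CDK6 window 3, the downstream CDKN2A window 2 and the upstream one 0. GGGCGG stood in 9 of the 14 windows (9 of 13 without that of RB1) and, on either strand, in 45.0% of the 35116 promoters in the RefSeq table. TATAAA, present in 11.5% of those promoters, was in 0 of the 14 windows. So were the E2F forms TTTCCCGC, TTTGGCGC, TTTCGCGC and TTTGCCGC, of which at least 1 was present in 3.31% of promoters, again counting both strands.

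The libraries held 33800389 to 40031710 counts, so that 3 counts, the limit a count of 0 allows, corresponded to 0.0749 to 0.0897 CPM (counts per 1000000 library counts, scaled with TMM factors over the 8 libraries). The 2 libraries of NCI-H1581R differed most from each other (chi-square per degree of freedom of 103, against 24.6 to 33.9 in the other variants). Markers fixed for the lines gave VIM at 99631 to 244224 counts per library, CDH1 at 10 to 46, and EPCAM at 284 to 537 in NCI-H1581 and NCI-H1581R but 3 to 26 in NCI-H1703 and NCI-H1703R. KRT18, a keratin of the same list, had 2380 and 2188 counts in NCI-H1703 and 37 to 109 in the other variants. Of 5 markers of blood and endothelial cells, CD3E and HBB had 0 counts in all 8 libraries, PTPRC 0 to 15 and PECAM1 0 to 18, while the lysosomal gene CD68 had 578 to 3261. In bulk RNA, fewer cells with a gene switched on and less of its RNA per cell cannot be told apart. FGFR1, the target of the inhibitor, was lower in both resistant variants, with log2 fold changes of -2.59 (SE 0.21) in NCI-H1581R and -0.51 (SE 0.10) in NCI-H1703R. Coordinates of genes are those of GENCODE v44 on GRCh38 and span all exons and introns. A gene was called changed when its edgeR quasi-likelihood p, adjusted over all 18203 genes by Benjamini-Hochberg, was under 0.1. Whether the libraries of 2 variants overlapped is given as a description. The share of all genes without overlap was not computed. Genes that were not called, such as CCNE1 and CDK2, also showed no overlap in both lines.

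In NCI-H1581R, 4 of the 10 were called, where 15.1% of all genes tested were called: CDK6 and RB1 rose, and CCND3 and CDKN1A fell. In NCI-H1703R, 5 of the 10 were called, where 14.7% of all genes were: CCND2 rose, and CCND1, CDK6, CDKN1A and CDKN1B fell. CDKN1A fell in both lines, and CDK6 was the gene called in both lines with opposite directions. CDK4, CDKN2A and CDKN2C were called in neither. These counts are from the fit without the replicate number as a block. With it, 4 were called in NCI-H1581R and 9 in NCI-H1703R, where CCND3, CDK4, RB1 and CDKN2C were added. In NCI-H1703R the block called 6356 of all 18203 genes, against 2683 without it. The number of all genes it called in NCI-H1581R is not given here. A test of the difference between the changes in the 2 lines, NCI-H1703 minus NCI-H1581, called 5 of the 10 (CCND1, CCND3, CDK6, RB1 and CDKN1B), where 15.4% of all genes were called.

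**Figure D1:**
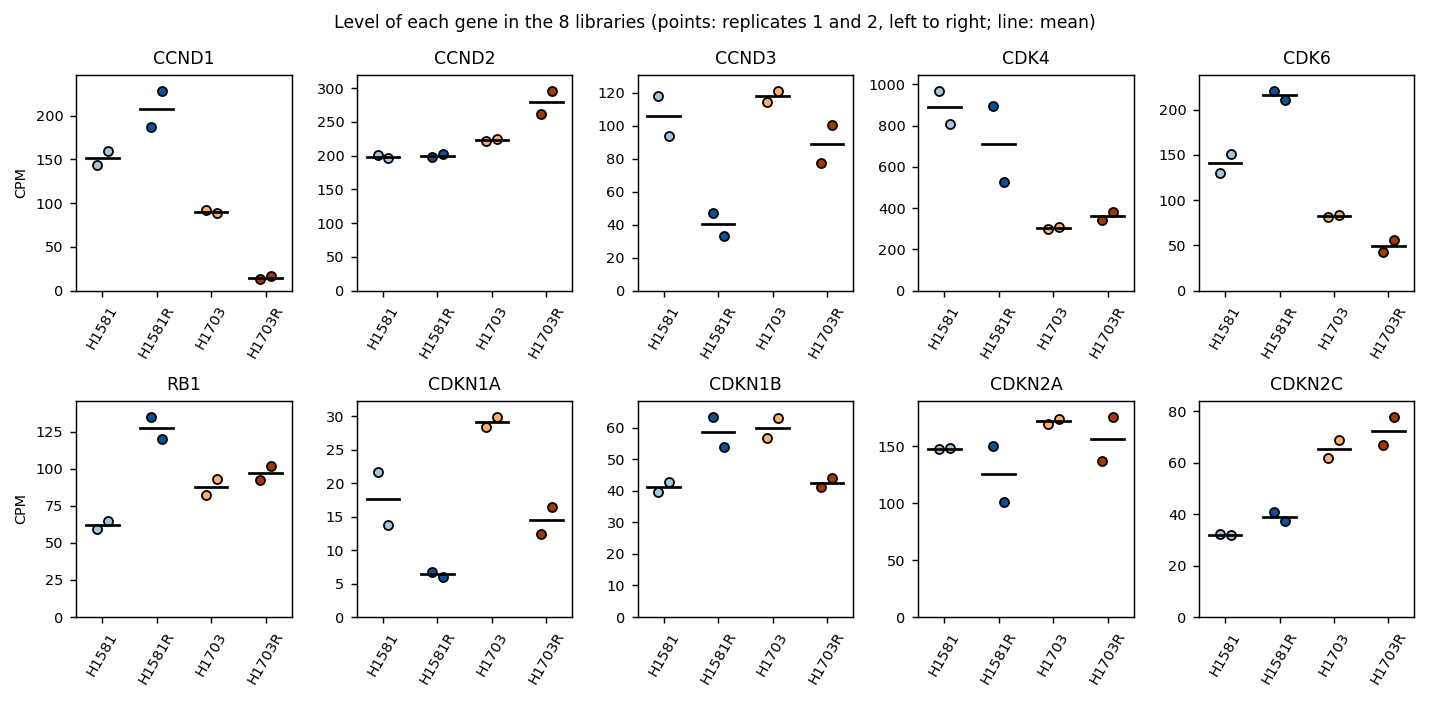
Level of each of the 10 genes in CPM (linear axis from 0, scaled for each gene) in NCI-H1581, NCI-H1581R, NCI-H1703 and NCI-H1703R, with points for replicates 1 and 2 and a line for their mean. CCND1 is lowest in NCI-H1703R (13.2 and 16.9 CPM), CDKN1A lies lower in each resistant variant than in its parent, and CDK4 is higher in every NCI-H1581 and NCI-H1581R library than in any NCI-H1703 or NCI-H1703R library.

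CCND1 (ENSG00000110092, chr11:69641156-69654474), the D cyclin most closely tied to growth factor signalling, stood at 144 and 160 CPM in NCI-H1581, 187 and 229 CPM in NCI-H1581R, 92.0 and 88.4 CPM in NCI-H1703, and 13.2 and 16.9 CPM in NCI-H1703R. Both NCI-H1703R libraries lay far under all others, and the groups overlapped in neither line. CCND1 fell 5.86-fold in NCI-H1703R, from 90.2 ± 2.56 to 15.1 ± 2.65 CPM (SD, n = 2 each), a log2 fold change of -2.55 (SE 0.13, adjusted p = 0.000795). It was the largest change among the 10 genes in either line and kept its call without any 1 of the 4 libraries. In NCI-H1581R its mean was 208 ± 29.4 CPM against 152 ± 11.4 CPM, a log2 fold change of 0.46 (SE 0.18) that was not called (adjusted p = 0.187). Without replicate 1 of NCI-H1581R it was 0.61 and called (adjusted p = 0.0166). The change differed between the lines by -3.03 on the log2 scale (SE 0.23, adjusted p = 0.000129).

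CCND2 (ENSG00000118971, chr12:4269771-4305353), a second D cyclin, was the steadiest of the 3 in NCI-H1581, at 200.3 and 196.5 CPM, with 199 and 202 CPM in NCI-H1581R. The log2 fold change there was 0.02 (SE 0.16, adjusted p = 0.968, 95% interval -0.35 to 0.40). It measured 221 and 225 CPM in NCI-H1703 against 262 and 296 CPM in NCI-H1703R, so both resistant libraries were above both sensitive ones. This rise of 0.35 (SE 0.10) was called (adjusted p = 0.0850), but not with RLE normalization, without a filter on low counts or in a single fit of the 8 libraries (adjusted p = 0.119, 0.120 and 0.162), nor without either NCI-H1703 library or replicate 2 of NCI-H1703R (0.375, 0.313 and 0.197). The difference between the lines of 0.31 was not called (adjusted p = 0.300). Exons of CCND2 overlap by 999 bases those of ENSG00000285901, a protein-coding gene on the same strand with no row in the count table. Reads there may belong to either gene.

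CCND3 (ENSG00000112576, chr6:41934934-42050357), also a D cyclin, fell 2.61-fold in NCI-H1581R. Its libraries held 118 and 93.4 CPM in NCI-H1581 and 47.3 and 33.0 CPM in NCI-H1581R, with no overlap (log2 fold change -1.38, SE 0.22, adjusted p = 0.0122). Without replicate 1 of NCI-H1581 the change was -1.23 and no longer called (adjusted p = 0.118). In NCI-H1703 it stood at 114 and 121 CPM and in NCI-H1703R at 77.5 and 100 CPM. These groups did not overlap either, but the log2 fold change of -0.38 (SE 0.13) was not called (adjusted p = 0.158). With the replicate number as a block it was -0.39 and called (adjusted p = 0.00356), as it was with DESeq2 (0.0614), with at least 10 counts in every library (0.0795) and without replicate 2 of NCI-H1703R (0.0526). The change was 0.98 higher in NCI-H1703 (SE 0.29, adjusted p = 0.0701). That difference lost its call without replicate 1 of NCI-H1581, replicate 2 of NCI-H1581R, either NCI-H1703 library or replicate 2 of NCI-H1703R (adjusted p = 0.222, 0.103, 0.217, 0.170 and 0.232).

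The make-up of the D cyclin RNA was compared as CPM per kilobase of each gene's main transcript, since levels of different genes can be set side by side only per length. CCND3 made up 47.3 and 40.4% of the D cyclin total in NCI-H1581 and 23.8 and 16.1% in NCI-H1581R, while CCND1 made up 27.6 and 33.1% before and 45.0 and 53.2% after. In NCI-H1703R the CCND1 share was 3.81 and 4.04%, against 19.3 and 18.1% in NCI-H1703, and the CCND2 share was 49.4 and 46.1% against 30.3 and 30.1%. The CCND3 share was 46.8 to 51.9% in these 4 libraries. The summed D cyclin level was 118 ± 6.17 and 99.7 ± 2.28 CPM per kb in NCI-H1581 and NCI-H1581R, and 114 ± 2.18 and 90.4 ± 12.2 CPM per kb in NCI-H1703 and NCI-H1703R (SD, n = 2 each). With this length both resistant variants were lower than their parents, with no overlap. With the union of all exons the totals of NCI-H1581 and NCI-H1581R overlapped (75.0 ± 0.91 and 75.7 ± 4.69 CPM per kb), while NCI-H1703R stayed under NCI-H1703 (53.5 ± 6.36 against 67.3 ± 0.64). With that length CCND3 made up 24.4% in NCI-H1581 in place of 43.8%, so that levels of different genes depend on the transcript assumed, while the CCND1 and CCND3 shares of NCI-H1581R and the CCND1 and CCND2 shares of NCI-H1703R still differed from the parent in the same direction. Shares were not tested.

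**Figure D2:**
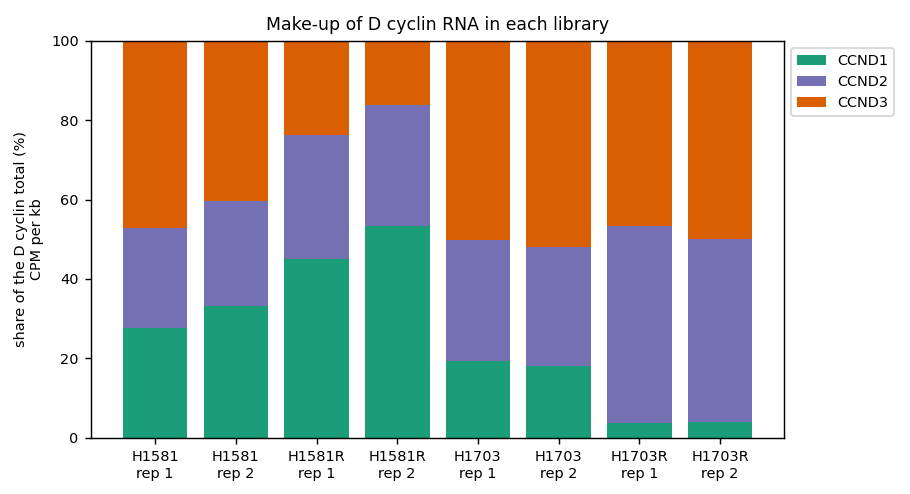
Share of CCND1, CCND2 and CCND3 in the D cyclin total of each library (stacked bars, percent of CPM per kb of the main transcript, rep 1 and rep 2 of each variant). The CCND1 part is largest in the NCI-H1581R libraries (45.0 and 53.2%) and smallest in those of NCI-H1703R (3.81 and 4.04%).

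CDK4 (ENSG00000135446, chr12:57747727-57756013), the main kinase partner of D cyclins in many cells, was by far the more abundant of the 2 kinases. It was measured at 970.5 and 810.5 CPM in NCI-H1581, 894 and 528 CPM in NCI-H1581R, 301 and 308 CPM in NCI-H1703, and 341 and 383 CPM in NCI-H1703R. In NCI-H1581R, 1 library lay between those of the parent and the other under both, and the log2 fold change of -0.32 (SE 0.28) was not called (adjusted p = 0.561). This value rests on replicate 1 of NCI-H1581R, without which it was -0.73 and called (adjusted p = 0.00979). In NCI-H1703R both libraries lay above both of NCI-H1703, by 0.28 on the log2 scale (SE 0.10, adjusted p = 0.152). The blocked fit gave the same 0.28 and called it (adjusted p = 0.00701), as did DESeq2 (0.0598) and the stricter filter in every library (0.0945). The difference between the lines of 0.57 was not called (adjusted p = 0.355), but without replicate 1 of NCI-H1581R it was 1.0 and called (adjusted p = 0.0119). Exons of CDK4 overlap TSPAN31 on the other strand by 1369 bases, and since no source used here states that strand was used in the counting, reads there may belong to either gene. TSPAN31 itself had 57 to 890 counts against 10286 to 33639 for CDK4.

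CDK6 (ENSG00000105810, chr7:92604921-92836573), the second kinase, rose 1.55-fold in NCI-H1581R and fell 1.65-fold in NCI-H1703R. Its level was 130 and 151 CPM in NCI-H1581 and 221 and 211 CPM in NCI-H1581R, then 81.6 and 83.9 CPM in NCI-H1703 and 42.5 and 55.5 CPM in NCI-H1703R. The groups overlapped in neither line. The rise was 0.63 on the log2 scale (SE 0.17, adjusted p = 0.0726) and the fall was -0.73 (SE 0.14, adjusted p = 0.0325). Neither call survived the loss of a sensitive library: without replicate 1 or 2 of NCI-H1581 the rise was 0.50 or 0.74 (adjusted p = 0.547 and 0.350), and without replicate 1 or 2 of NCI-H1703 the fall was -0.76 or -0.69 (adjusted p = 0.222 and 0.247). The difference of -1.38 between the lines (SE 0.21, adjusted p = 0.00520) kept its call without any 1 of the 8 libraries. Of the CPM per kb of CDK4 and CDK6 together, CDK6 made up 2.10 and 2.90% in NCI-H1581, 3.81 and 6.01% in NCI-H1581R, 4.15 and 4.18% in NCI-H1703 and 1.95 and 2.27% in NCI-H1703R. The CDK6 share was therefore higher in NCI-H1581R and lower in NCI-H1703R than in the parent, without overlap.

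RB1 (ENSG00000139687, chr13:48303744-48599436), which encodes the retinoblastoma protein and is often lost in small cell lung cancer, was expressed in all 8 libraries (1999 to 5077 counts). It rose 2.07-fold in NCI-H1581R, from 59.3 and 64.9 CPM to 135 and 120 CPM, and the groups did not overlap (log2 fold change 1.05, SE 0.17, adjusted p = 0.0111). The call was lost without replicate 1 or 2 of NCI-H1581, at log2 fold changes of 0.97 and 1.11 (adjusted p = 0.194 and 0.148). RB1 measured 82.5 and 92.8 CPM in NCI-H1703 and 92.5 and 101.5 CPM in NCI-H1703R, where the groups overlapped and the log2 fold change of 0.18 (SE 0.11) was not called (adjusted p = 0.385), although the blocked fit called it (adjusted p = 0.0741). The change was lower in NCI-H1703 by 0.89 (log2 difference -0.89, SE 0.18, adjusted p = 0.0167). Without replicate 2 of NCI-H1703 this difference was -0.78 and no longer called (adjusted p = 0.103).

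CDKN1A (ENSG00000124762, chr6:36676460-36687337), the p21 inhibitor and a classic target of p53, was the least abundant of the 10 genes in counts, from 235 to 1054 per library. It stood at 21.6 and 13.8 CPM in NCI-H1581, 6.78 and 5.97 CPM in NCI-H1581R, 28.5 and 29.9 CPM in NCI-H1703 and 12.5 and 16.5 CPM in NCI-H1703R. Each resistant library was lower than both of its parent. CDKN1A fell 2.74-fold in NCI-H1581R (-1.46 on the log2 scale, SE 0.28, adjusted p = 0.0227) and 1.98-fold in NCI-H1703R (-0.98, SE 0.15, adjusted p = 0.0191). The difference between the lines was 0.46 (95% interval -0.33 to 1.24) and not called (adjusted p = 0.506). The first call was lost without replicate 1 of NCI-H1581 (-1.12, adjusted p = 0.203), and the second without replicate 1 or 2 of NCI-H1703 (-1.04 and -0.93, adjusted p = 0.176 and 0.212).

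CDKN1B (ENSG00000111276, chr12:12685498-12722369), the p27 inhibitor, whose abundance is set largely at the protein level, differed between the lines in its change with resistance. It was measured at 39.7 and 42.7 CPM in NCI-H1581, 63.5 and 53.8 CPM in NCI-H1581R, 56.7 and 63.1 CPM in NCI-H1703, and 41.2 and 43.9 CPM in NCI-H1703R. The resistant libraries were both higher in the first line and both lower in the second. In NCI-H1703R it fell by 0.46 on the log2 scale (SE 0.11, adjusted p = 0.0544), and this call was lost without any 1 of the 4 libraries (adjusted p = 0.102 to 0.285). The value of 0.52 in NCI-H1581R (SE 0.17) was not called (adjusted p = 0.127), but was with DESeq2 (0.0890), in the single fit of the 8 libraries (0.0322), and without replicate 1 or 2 of NCI-H1581R (0.10 and 0.0310). The difference between the lines was -1.0 (SE 0.19, adjusted p = 0.0124), called also without any 1 of the 8 libraries.

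CDKN2A (ENSG00000147889, chr9:21967752-21995301), which encodes p16INK4a and ARF, was well expressed in every library, with 3985 to 6658 counts. Its level was 147 and 148 CPM in NCI-H1581, 150 and 101 CPM in NCI-H1581R, 169 and 174 CPM in NCI-H1703, and 137 and 176 CPM in NCI-H1703R. Replicate 2 of NCI-H1581R was the lowest, and sensitive and resistant libraries overlapped in both lines. The log2 fold changes were -0.22 (95% interval -0.74 to 0.29, adjusted p = 0.596) and -0.10 (-0.42 to 0.21, adjusted p = 0.689). Without replicate 1 of NCI-H1581R the first was -0.53 and called (adjusted p = 0.0241), and without replicate 2 it was 0.01. In the region around the gene, MTAP, whose loss often goes with that of CDKN2A, had 360 to 1237 counts, KLHL9 had 808 to 1215 and CDKN2B had 187 to 410, whereas DMRTA1 and ELAVL2 had 0 to 13. CDKN2B, an INK4 inhibitor beside CDKN2A, rose in NCI-H1581R by 0.87 (SE 0.25, adjusted p = 0.0837) and fell by 0.80 in NCI-H1703R (log2 fold change -0.80, SE 0.17, adjusted p = 0.0456). The antisense gene CDKN2B-AS1 had no row in the count table, so its level is not known here. It overlaps exons of CDKN2A by 593 bases.

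CDKN2C (ENSG00000123080, chr1:50960745-50974634), the p18 inhibitor, was measured at 32.1 and 32.1 CPM in NCI-H1581, 40.7 and 37.4 CPM in NCI-H1581R, 61.9 and 69.1 CPM in NCI-H1703, and 66.9 and 77.9 CPM in NCI-H1703R. It was higher in the second line, and overlapped between NCI-H1703 and NCI-H1703R. The log2 fold changes of 0.29 (SE 0.17) and 0.17 (SE 0.12) were not called (adjusted p = 0.346 and 0.436), although the blocked fit called the latter (adjusted p = 0.0874). No inhibitor among the 10 genes was at 0 counts in any library. Of the other inhibitors, CDKN1C, a CIP/KIP gene, came lowest with 28 to 53 counts in NCI-H1703 and NCI-H1703R and 83 to 449 in NCI-H1581 and NCI-H1581R, and CDKN2D, an INK4 gene, had 57 to 261 counts. Their changes with resistance were not called in either line (adjusted p = 0.119 and 0.591 for CDKN1C, 0.709 and 0.524 for CDKN2D).

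**Figure D3:**
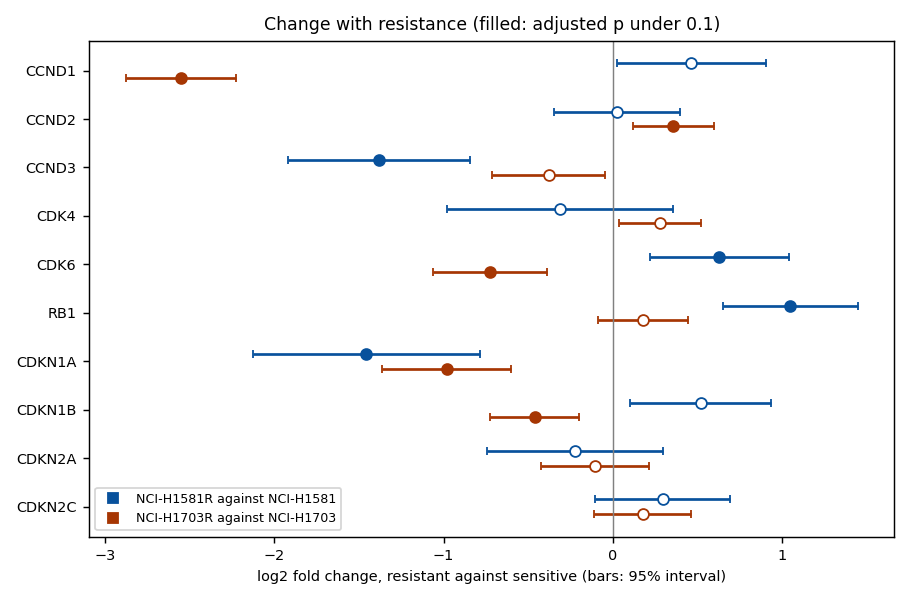
Log2 fold change of each gene (points, with 95% intervals as bars) in NCI-H1581R against NCI-H1581 (blue) and NCI-H1703R against NCI-H1703 (brown), filled where adjusted p was under 0.1. CCND1 stands apart in NCI-H1703R at -2.55, CDK6 lies on opposite sides of 0, and CDKN1A lies below 0 in both lines.

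The parental lines differed in most of these genes, as they did in most genes tested. Between NCI-H1703 and NCI-H1581, 8 of the 10 were called, where 62.9% of all genes tested were called. CDK4 was 2.92-fold lower in NCI-H1703 (log2 fold change -1.55, SE 0.11, adjusted p = 1.7e-05), CDK6 1.70-fold lower (adjusted p = 0.000970) and CCND1 1.69-fold lower (adjusted p = 0.000614). The inhibitors among the 10 pointed the other way, with CDKN2C 2.04-fold higher in NCI-H1703 (log2 fold change 1.03, SE 0.12, adjusted p = 0.000214), CDKN1A 1.67-fold higher (adjusted p = 0.0158) and CDKN1B 1.45-fold higher (adjusted p = 0.00656). Outside the 10, CDKN1C was 5.04-fold lower in NCI-H1703 (adjusted p = 0.00952), while CDKN2B and CDKN2D were 1.93-fold and 2.36-fold higher (adjusted p = 0.00429 and 0.0275). RB1 was 1.41-fold higher (adjusted p = 0.00913). CDKN2A was 1.16-fold higher (adjusted p = 0.0797), a call lost without any 1 of the 4 libraries (adjusted p = 0.116 to 0.265), and with RLE normalization (0.127), a filter in every library (0.109) or a single fit (0.385). CCND2 and CCND3 were not called (adjusted p = 0.144 and 0.296), though CCND3 was without replicate 1 of NCI-H1581 (0.0457).

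Between the resistant variants the distances in CCND1 and CDK6 were wider. NCI-H1703R had 13.5-fold less CCND1 RNA than NCI-H1581R (log2 fold change -3.75, SE 0.21, adjusted p = 0.000160) and 4.31-fold less CDK6 (-2.11, SE 0.18, adjusted p = 0.000692). CCND3 and CDKN1A were 2.26-fold and 2.33-fold higher in NCI-H1703R (adjusted p = 0.0128 and 0.0107), and CDKN2C 1.90-fold higher (adjusted p = 0.00695). CDKN1A and CDKN2C lost these calls without replicate 2 of NCI-H1703R (adjusted p = 0.123 and 0.107). In all, 8 of the 10 genes were called, where 52.5% of all genes were. The calls of CCND2 (0.52, adjusted p = 0.0446), CDK4 (-0.94, adjusted p = 0.0509) and CDKN1B (-0.43, adjusted p = 0.0834) were lost without either NCI-H1703R library (adjusted p = 0.159 to 0.427). CDKN1B, which had been higher in NCI-H1703 than in NCI-H1581, was lower in NCI-H1703R than in NCI-H1581R. RB1 and CDKN2A were not called (adjusted p = 0.110 and 0.304), RB1 only in some alternatives, such as the single fit (0.0303).

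Per kilobase, CDK4 was the most abundant of the 10 in NCI-H1581 (478 ± 60.6 CPM per kb, SD, n = 2), NCI-H1581R (381 ± 139) and NCI-H1703R (194 ± 16.1), and CDKN2A was next (151 ± 0.38, 129 ± 35.5 and 160 ± 27.8). In NCI-H1703 the order was CDKN2A at 176 ± 3.56 and CDK4 at 163 ± 2.36 CPM per kb, without overlap of the replicates. With the union of exons as length this order turned, at 44.2 CPM per kb for CDKN2A and 98.4 for CDK4. The order of the genes after these differed between variants. With the main transcript as length, CCND3 came next in NCI-H1581 (52.1 ± 8.45), CCND1 in NCI-H1581R (49.0 ± 6.93) and CDKN2C in NCI-H1703 (65.8 ± 5.06) and NCI-H1703R (72.8 ± 7.82). The lowest place was held by CDKN1A in NCI-H1581 (8.36 ± 2.62) and NCI-H1581R (3.01 ± 0.27), by CDK6 in NCI-H1703 (7.10 ± 0.13) and by CCND1 in NCI-H1703R (3.56 ± 0.63), where CDK6 stood next (4.20 ± 0.79) and its replicates overlapped those of CCND1. Other neighbours with overlapping replicates were RB1 and CDK6 in NCI-H1581, RB1, CDKN1B, CCND3 and CDK6 each with the next in NCI-H1581R, and CCND3 and CCND2 in NCI-H1703R. These places depend on the length. With the union of exons, CCND1 followed CDK4 and CDKN2A in NCI-H1581 (31.9 CPM per kb) and followed CDK4 directly in NCI-H1581R (43.6), CCND2 came before CDKN2C in NCI-H1703 (27.9 and 21.7 CPM per kb), and CDKN1B was lowest in NCI-H1581 (4.45) and NCI-H1703 (6.47). With the longest transcript CDKN2C stood at 22.6 CPM per kb in NCI-H1703, under CCND3 and CCND2.

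Genes that start within 1 Mb of each of the 10 were listed to set its change beside those of the surrounding region, leaving out those with 0 counts in all 4 libraries of the line compared. A gene with a large fall lies under most genes of any region, so the counts above it are a description. The medians can be set beside those of all genes tested, 0.04 in NCI-H1581R and 0.00 in NCI-H1703R. Of the 13 around CCND1, 12 had a higher log2 fold change than CCND1 in NCI-H1703R, with a median of -0.03, and the 1 below it was GAL (-3.70). LTO1, whose exons overlap those of CCND1 by 497 bases on the other strand, measured -0.03 (adjusted p = 0.967). GAL was also the 1 neighbour called. Around CDK6, 15 of 16 neighbours lay above it in NCI-H1703R (median 0.06). In NCI-H1581R, where CDK6 rose by 0.63, 5 of the 16 lay above it, 2 rose, CALCR (5.34) among them, and 0 fell, with a median of 0.32 beside 0.04 for all genes. Around CCND3 in NCI-H1581R, 32 of 34 lay above it (median 0.01), while TFEB also fell (-1.10, adjusted p = 0.0126) and MDFI rose (1.10, adjusted p = 0.00889). Around CDKN1A, 24 of 25 lay above it in NCI-H1581R (median 0.14) and 23 of 25 in NCI-H1703R (median -0.02).

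RB1 differed in this respect. In NCI-H1581R, 4 of its 10 neighbours rose and 0 fell, with a median of 0.63 beside 0.04 for all genes tested, of which 7.63% rose. These were MED4 (0.67), LPAR6, which lies inside the RB1 gene (7.22), RCBTB2 (1.12) and FNDC3A (0.72). All 10 were above 0, the lowest at 0.01. In NCI-H1703R the median was -0.11, and ITM2B (0.34) was called. Around CDKN1B, 4 of 15 neighbours rose and 0 fell in NCI-H1581R (MANSC1, DUSP16, CREBL2 and HTR7P1), again beside 7.63% of all genes, and the median of 0.49 was close to the 0.52 of CDKN1B itself. In NCI-H1703R, MANSC1 and EMP1 fell (2 of 15, where 7.68% of all genes fell) and the median was -0.26, against -0.46 for CDKN1B. No DNA copy number was analysed here, so its part in these values was not tested.

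**Figure D4:**
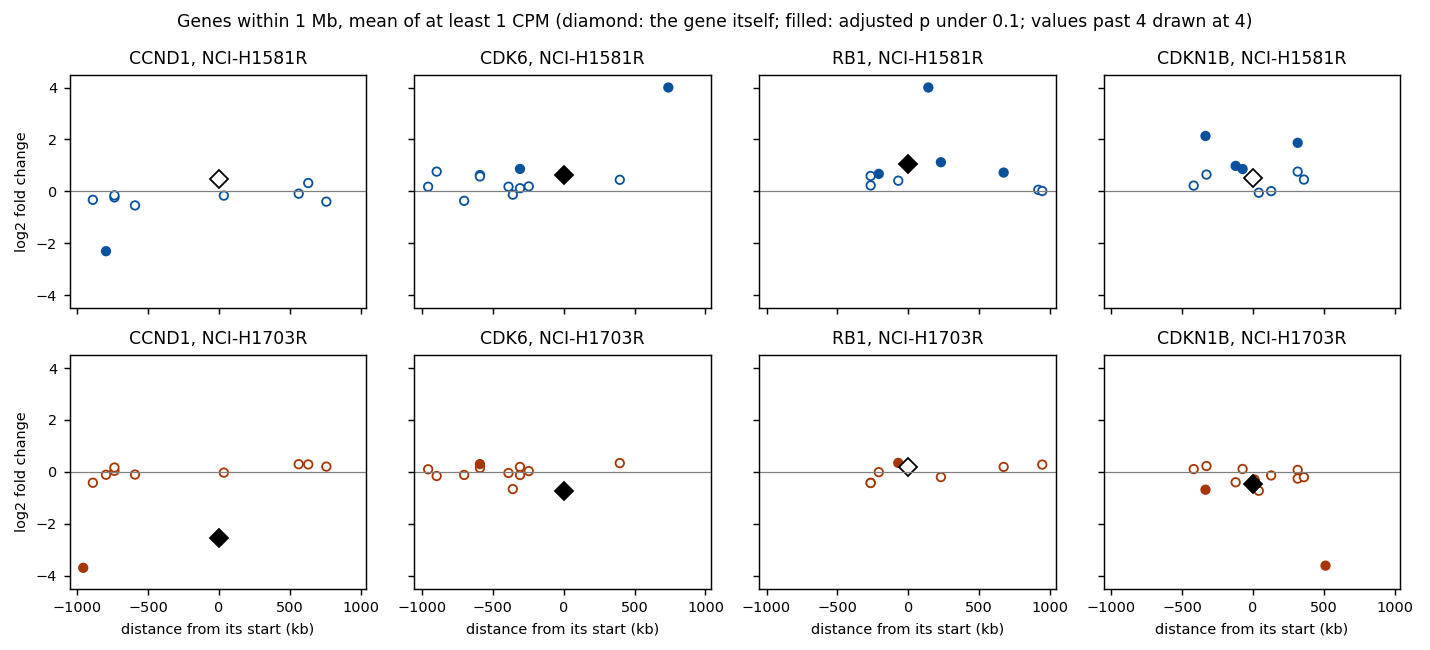
Log2 fold change with resistance of genes within 1 Mb of CCND1, CDK6, RB1 and CDKN1B (circles, mean of at least 1 CPM in the line, against distance of their start in kb) and of the gene itself (diamond), filled where adjusted p was under 0.1, with values past 4 drawn at 4. CCND1 in NCI-H1703R lies under the neighbours drawn except GAL, and the genes around RB1 in NCI-H1581R lie at or above 0.

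Of 26 other genes of the G1/S transition, 3 rose and 3 fell in NCI-H1581R (median log2 fold change 0.15, all genes 0.04), and 1 rose and 4 fell in NCI-H1703R (median -0.06, all genes 0.00). These are 23.1 and 19.2% of the list, where 15.1 and 14.7% of all genes were called. The counts moved when 1 library was left out. They reached 12 in NCI-H1581R in a single fit of the 8 libraries, which called 4539 genes in all there. In NCI-H1703R they reached 12 with the replicate block, which called 6356 genes in all. In NCI-H1581R, E2F7, a repressor among the E2F factors, rose by 1.92 (SE 0.28, adjusted p = 0.00789), from 8.61 to 32.5 CPM. TFDP1, the dimerization partner of E2F proteins, changed by -1.06 (SE 0.18, adjusted p = 0.0132), and E2F4, a repressive E2F, by -0.88 (SE 0.16, adjusted p = 0.0176). RBL2, a relative of RB1 that encodes p130, changed by -0.95 in NCI-H1581R (adjusted p = 0.0207) and rose by 0.41 in NCI-H1703R (adjusted p = 0.0797), opposite in direction to RB1 in the first line. The difference between the lines was 1.34 (SE 0.18, adjusted p = 0.00277). In NCI-H1703R the falls were in CDC25A, a phosphatase that activates CDKs (-0.96, adjusted p = 0.00999), CDKN2B, CCNE2, an E-type cyclin (-0.71, adjusted p = 0.0509), and E2F2, an activating E2F (-0.50, adjusted p = 0.0286).

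Of 18 E2F target genes of DNA replication and mitosis, 7 fell and 0 rose in NCI-H1581R (38.9%, where 15.1% of all genes were called in either direction), and the median was -0.45. The largest falls were in GINS2, a subunit of the replicative helicase (-1.0, adjusted p = 0.0353), RRM2 of ribonucleotide reductase (-0.98, adjusted p = 0.0534), CDT1, a licensing factor (-0.77, adjusted p = 0.0330), and TYMS, thymidylate synthase (-0.69, adjusted p = 0.0751). In NCI-H1703R, 3 of the 18 fell and 0 rose (16.7%, background 14.7%), at a median of -0.32. Among them were MYBL2, a transcription factor (-0.55, adjusted p = 0.0322), and TYMS (-0.46, adjusted p = 0.0527). This count is sensitive to the fit, since 16 of 18 were called with the replicate block, which also called more of all genes tested. It was 8 with DESeq2 and 10 with at least 10 counts in every library, and moved with 1 library left out. In NCI-H1581R the count was 11 with DESeq2 and also moved with 1 library left out. The numbers of all genes called with DESeq2 and with the stricter filter are not given here. These counts are therefore not read as a result about E2F targets. Of the 18 genes, 0 were called for a difference between the lines with edgeR, where 15.4% of all genes tested were called. With edgeR 4 had an unadjusted p under 0.05, and DESeq2 called 4. The shares of all genes for these last counts are not given here.

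CDKN1A is a p53 target, and of 20 other genes of that kind, 2 rose and 2 fell in NCI-H1581R (median -0.03) and 6 rose and 3 fell in NCI-H1703R (median -0.04). These are 4 and 9 of the 20, the latter 45.0% of the list, where 15.1 and 14.7% of all genes were called. Those that fell in NCI-H1581R beside CDKN1A were the death receptors TNFRSF10B (-1.25, adjusted p = 0.00566) and FAS (-1.24, adjusted p = 0.0334), and both rose in NCI-H1703R (0.52, adjusted p = 0.0339, and 1.70, adjusted p = 0.00478), where CDKN1A fell. The differences between the lines were 1.75 for TNFRSF10B (adjusted p = 0.000609) and 2.92 for FAS (adjusted p = 0.000668). SESN2, a stress-induced regulator of nutrient signalling, rose in both lines (1.03, adjusted p = 0.0114, and 0.57, adjusted p = 0.0329). In NCI-H1703R, GDF15, a secreted stress cytokine, rose from 2.72 ± 0.93 to 46.3 ± 5.94 CPM (log2 fold change 4.11, SE 0.21, adjusted p = 0.000795), TP53I3 rose by 0.72 (adjusted p = 0.0105) and PLK3 changed by -0.79 (adjusted p = 0.0831). SESN2, GDF15 and TNFRSF10B also respond to other stress pathways. With 1 library left out, 1 to 7 of the 20 were called in NCI-H1581R and 1 to 5 in NCI-H1703R.

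**Figure D5:**
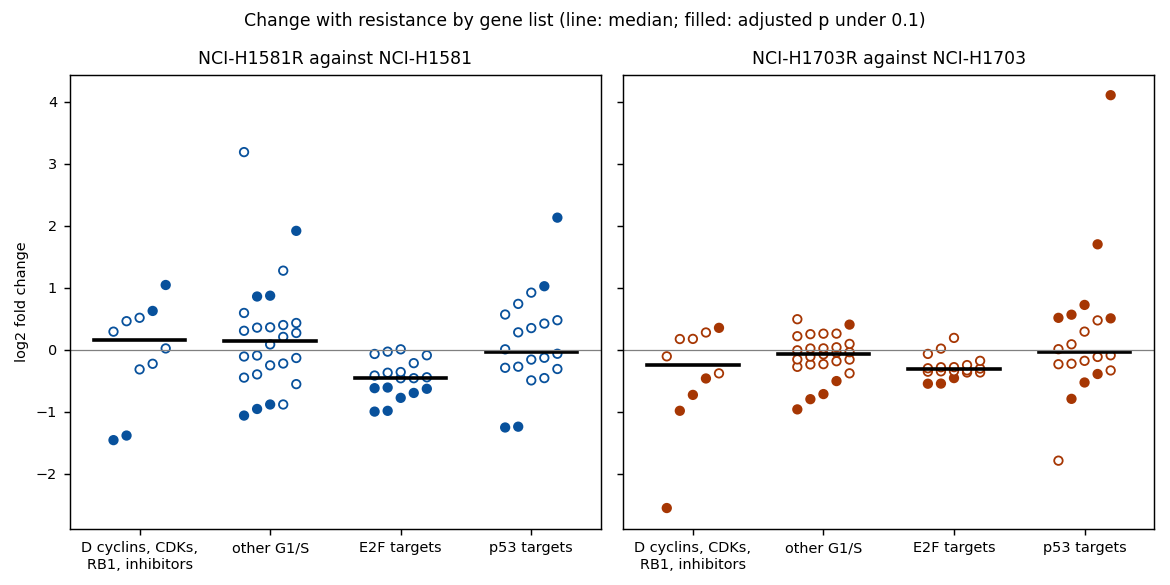
Log2 fold change with resistance of the 10 genes described here, 26 other G1/S genes, 18 E2F target genes and 20 p53 target genes in NCI-H1581R (left) and NCI-H1703R (right), with points filled where adjusted p was under 0.1 and a line at each median. The E2F targets have medians of -0.45 and -0.32, and the p53 targets spread to both sides.

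Among 11174 genes averaging 5 CPM or more, the profiles over the 8 libraries nearest to those of CCND1, CDK6 and CDKN1A were found by the distance between log2 CPM values centred on each gene's mean. Nearest to CCND1 were MEIS3P1 (distance 0.59), TIAM1 (0.99) and ARHGAP22 (1.01). TIAM1, an activator of RAC, had 24.9 CPM in NCI-H1581, 43.5 in NCI-H1581R, 11.6 in NCI-H1703 and 1.33 in NCI-H1703R (means of 2 libraries). Nearest to CDK6 were PRKAR2B (0.35), ENSG00000275045 (0.44) and TRDMT1 (0.48), and nearest to CDKN1A were EIF4EBP1 (0.61), LSM1 (0.66) and INPP1 (0.73). EIF4EBP1, a repressor of translation initiation, stood at 257 and 337 CPM in NCI-H1581 and NCI-H1703 and at 102 and 227 CPM in NCI-H1581R and NCI-H1703R. Since these genes were picked for their likeness over the same libraries, their changes are a description.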

How the data were processed

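RNA from 8 libraries, 2 for each of NCI-H1581, NCI-H1581R, NCI-H1703 and NCI-H1703R, was analysed from 1 table of genes by libraries, and groups were taken from the sample titles. Per the labels and the study's methods, total RNA was sequenced as paired reads, and the authors deposited estimated counts per gene made with Salmon against GRCh38 and tximport, in whole numbers and not normalised; cutadapt is also named in the submitters' processing notes. Tool versions, the transcript annotation, the tximport scaling and the use of strand are not given in the sources used here, so genes that overlap another on either strand are uncertain. All columns of the table were used.

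Fold changes and two-sided p-values came from edgeR 4.0.16 (TMM, quasi-likelihood test) in R 4.3.3 on the 18203 genes with at least 10 counts in total, fitted on the 4 libraries compared, with Benjamini-Hochberg adjustment and a threshold of 0.1. The difference between the lines was tested as line by variant interaction over the 8 libraries. A standard error was the size of the log2 fold change divided by the square root of F, and 95% intervals used edgeR's total degrees of freedom. CPM were divided by the length of the Ensembl canonical transcript (GENCODE v44), which matched 17177 of the genes tested. Totals of 33800389 to 40031710 counts set the precision, and limits from counts cover counting error only. The fits were tested on simulated data. The simulated libraries were drawn independently, without the shared deviation of same-numbered libraries given below, so that test does not cover it.

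The study repeated the whole procedure for the second replicate. Same-numbered libraries deviated together within lines (Pearson's r across 11174 genes of 0.20 between NCI-H1581 and NCI-H1581R and 0.41 between NCI-H1703 and NCI-H1703R), so the numbers were taken to pair them there. The main tests, that of the difference between the lines included, did not use this pairing, and the replicate block is given as an alternative. Replicates of each variant differed by more than sampling noise. The 10 genes and the gene lists were chosen with earlier results of these data known. Genes of a list were named when they were among its 4 largest called changes in a line (mean of at least 5 CPM) or were called in both lines. Some genes so selected are not reported here. The alternatives were DESeq2 1.42.0, RLE normalization, other filters, a replicate block, a single fit of the 8 libraries, a threshold of 0.05, other transcript lengths, leaving out each library, and, chosen after seeing the data, a crossed block. Protein blots and copy number arrays were not analysed here.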

Additional observations from a re-analysis of the deposited data

Results flagged for a closer look

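The change with resistance differed between the lines, by the interaction test over 8 libraries, for 5 of the 10 genes, where 15.4% of all genes tested were called. On the log2 scale, NCI-H1703 minus NCI-H1581, the difference was -3.03 for CCND1, 0.98 for CCND3, -1.38 for CDK6, -0.89 for RB1 and -1.0 for CDKN1B. CCND1, CDK6 and CDKN1B lay above both parental libraries in NCI-H1581R and under both in NCI-H1703R. CCND3 was lower than both parental libraries in each line, and RB1 was higher than both in NCI-H1581R and overlapped in NCI-H1703R. These positions are a description, since the share of all genes without overlap was not computed. With 1 library left out, the CCND1, CDK6 and CDKN1B differences stayed called in each of the 8 fits, the RB1 difference in 7 and the CCND3 difference in 3.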

How the results depend on the processing

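With 2 libraries a variant, counts of calls moved when a library was left out, which leaves a variant with 1 library whose spread is assumed to be that of the others. Called then were 0 to 8 of the 10 genes in NCI-H1581R (4 with all libraries; 0 without replicate 1 of NCI-H1581, 8 without replicate 1 of NCI-H1581R), 1 to 4 in NCI-H1703R (5; 1 without either NCI-H1703 library), 7 to 8 between the sensitive lines, 3 to 10 between the resistant variants (8; 3 without replicate 2 of NCI-H1703R) and 3 to 6 for the difference between the lines (5). For the other G1/S genes the ranges were 1 to 13 and 0 to 4 in NCI-H1581R and NCI-H1703R (6 and 5), for E2F targets 0 to 13 and 0 to 5 (7 and 3), and for p53 targets 1 to 7 and 1 to 5 (4 and 9). Calls over all genes tested ranged from 1128 to 5185 (2743) and from 274 to 1686 (2683).

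With the replicate block, 9 of the 10 genes, 12 other G1/S genes, 16 E2F targets and 6356 genes in all were called in NCI-H1703R, while 5 of the 10 were called between the resistant variants. The number of all genes the block called between the resistant variants is not given here. Nor is it given for the left-out fits of the sensitive lines, the resistant variants and the difference between the lines. Single genes such as KRT5 split by replicate number in all 4 variants. Over 11174 genes, however, same-numbered libraries of the resistant variants deviated in opposite ways (r = -0.45), so the numbers were not taken to pair libraries across lines. A crossed block called 10 of the 10 between the resistant variants and 11063 genes in all, and this choice came after seeing the data. The block changed no other call of the 10 genes than those given with each gene and the loss of CCND2, CDK4 and CDKN1B between the resistant variants. A single fit of the 8 libraries called 12 other G1/S genes, 11 E2F targets, 8 p53 targets and 4539 genes in NCI-H1581R, and 1730 genes in NCI-H1703R. DESeq2 called 11 and 8 E2F targets in NCI-H1581R and NCI-H1703R, and 10 counts in every library gave 10 in NCI-H1703R. The numbers of all genes called with these settings are not given here. An adjusted p under 0.05 left 3 of the 10 genes and 3 other G1/S genes in NCI-H1703R (1640 genes in all) and 2 E2F targets in NCI-H1581R (1793 in all). The cause of these shifts was not tested.

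Directions turned where values were near 0. CCND2 in NCI-H1581R became -0.0019 with RLE normalization and with DESeq2, and ranged from -0.0077 to 0.042 with 1 library left out (negative without replicate 2 of NCI-H1581R). For CDKN2A the ranges were -0.53 to 0.015 in NCI-H1581R (positive without its replicate 2), -0.29 to 0.071 in NCI-H1703R (positive without its replicate 1) and -0.158 to 0.41 for the difference between the lines (-0.158 and -0.090 without replicate 2 of NCI-H1581R and of NCI-H1703R). Over the 5 comparisons and all alternatives, 555 values for the 10 genes kept direction and side of the threshold, 52 lost a call, 26 gained one and 7 turned.

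Shares depended on the length used. With the union of exons, in the order NCI-H1581, NCI-H1581R, NCI-H1703 and NCI-H1703R, CCND1 made up 42.5, 57.5, 28.1 and 5.89% of D cyclin RNA, CCND2 33.1, 33.2, 41.5 and 65.4%, CCND3 24.4, 9.31, 30.4 and 28.7%, and CDK6 3.89, 7.53, 6.43 and 3.29% of CDK4 plus CDK6. With the longest transcript, CCND1, CCND2 and CCND3 made up 20.7, 31.6 and 47.7% in NCI-H1703 and 4.35, 50.3 and 45.4% in NCI-H1703R. Depth did not limit the 10 genes, whose lowest count was 235.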

Other observations

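CDK7, the kinase that activates CDK4 and CDK6 and a gene of the G1/S list, varied more between replicates than between variants. It had 20 and 0 counts in NCI-H1581, 186 and 5 in NCI-H1581R, 43 and 550 in NCI-H1703 and 12 and 755 in NCI-H1703R, so that no level can be given for any variant.

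KRT5, a squamous keratin, had 0 or 1 count in each replicate 1 and 35 to 47 counts in each replicate 2 of the 4 variants. KRT7 had 21 to 83 counts in each replicate 1 and 157 to 176 in each replicate 2. KRT18 fell from 2380 and 2188 counts in NCI-H1703 to 109 and 94 in NCI-H1703R, and SOX2 from 1407 and 1244 counts to 21 and 7. The squamous marker TP63 stood at 211 and 232 counts in NCI-H1581 and at 1045 and 1229 in NCI-H1581R. The adenocarcinoma marker NKX2-1 was also higher in NCI-H1581R (457 and 601 to 1509 and 2341 counts), as was SOX2 (58 and 20 to 249 and 262). Of the 7 lung adenocarcinoma and squamous markers listed, 5 had a positive and 2 a negative log2 fold change in NCI-H1581R. In NCI-H1703R 4 were positive and 3 negative, and 1 was called. All 6 epithelial markers had a negative log2 fold change in NCI-H1703R, and 1 was called.

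CDKN2B and RBL2 followed the same kind of split as CDK6, with calls of opposite direction in the 2 lines. Their differences between the lines, NCI-H1703 minus NCI-H1581, were -1.69 (SE 0.28, adjusted p = 0.00647) for CDKN2B and 1.34 (SE 0.18, adjusted p = 0.00277) for RBL2, by edgeR's interaction test.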
